A study of Mus musculus with 4 samples.

Results

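The cytosolic nucleic acid sensor genes of mouse lung CD11b+Ly6g+ cells were examined as a set of 9 genes out of the 54532 genes counted. The set was taken by gene symbol and holds the RIG-I-like helicase genes Ddx58, Ifih1 and Dhx58, their adaptor Mavs, the ligase gene Trim25, the helicase gene Ddx60, and the genes Zbp1, Adar and Eif2ak2, whose products bind double-stranded or left-handed nucleic acid. All 9 genes passed the filter of at least 10 counts in at least 1 library, as did 16369 genes in all. The cells were myeloid-derived suppressor cells (MDSCs) of male C57BL/6 mice, 6 to 8 weeks old, in which a pre-metastatic niche (PMN), a lung tissue changed by tumor-derived factors ahead of metastasis, had been induced. Every group received 300 μl of melanoma-conditioned medium (MCM) into the peritoneum on 10 consecutive days and B16F10 melanoma cells into the tail vein on day 7. The control group (Ctrl) was given no peptide. In the other groups a peptide at a labelled dose of 40 μM/kg/day was given under the skin, starting on day 3: the free pentapeptide thymopentin (TP5), the assembling peptide FR17 that carries TP5 on an enzyme-cleavable linker, or its counterpart sFD17, in which the TP5 order is scrambled. Lungs were taken on day 10, and sorted cells of 10 to 12 mice were pooled into 1 library per group, so no difference below has a replicate check and no p-value is given. All 4 groups carried the PMN model, and no group without it was part of the comparison.

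Cytosolic sensors detect RNA or DNA in the wrong place or form, as during viral infection. RIG-I (from Ddx58) and MDA5 (from Ifih1) bind double-stranded RNA and signal through MAVS on mitochondria to kinases that activate interferon regulatory factors, which switch on type I interferon genes. Interferon then acts through its receptor and transcription factors on genes with an interferon-stimulated response element, and many sensor genes are themselves targets of this loop.

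Libraries held 15543071 to 19638228 counts, and the 9 sensor genes took 0.0543% of them in Ctrl, 0.0534% in TP5, 0.0544% in FR17 and 0.119% in sFD17. Both sorting markers were present in every library, with 5711 to 6924 counts for Itgam (CD11b) and 1234 to 2081 for Ly6g. The summed level of 15 neutrophil marker genes was 46798 CPM (counts divided by the scaled library size) in Ctrl, 47741 for TP5, 63175 for sFD17 and 37950 for FR17, and all 15 markers were higher in sFD17 than in Ctrl. Macrophage markers, 13 genes, summed to 3650 CPM in Ctrl, 2332 for TP5, 1184 for sFD17 and 4355 for FR17, and 0 of 13 were higher in sFD17 and 12 of 13 in FR17 than in Ctrl. Epithelial markers, 8 genes, summed to 690 CPM in Ctrl, 1015 for TP5, 1379 for sFD17 and 820 for FR17, and 5 of 8 were higher in sFD17 than in Ctrl. No marker of any of the 10 cell types listed was at 0 in a library. These marker levels moved with the groups, and their part in the results below was not tested. In bulk RNA, fewer cells of a type and less RNA per cell cannot be told apart.

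On build GRCm38, Ddx58 (ENSMUSG00000040296) lies at chr4:40203773-40239828 on the minus strand and Ifih1 (ENSMUSG00000026896) at chr2:62595798-62646255 on the minus strand. Dhx58 (ENSMUSG00000017830) lies at chr11:100694884-100704271 on the minus strand and Mavs (ENSMUSG00000037523) at chr2:131234063-131248025 on the plus strand. Trim25 (ENSMUSG00000000275) is at chr11:88999376-89020293 on the plus strand and Ddx60 (ENSMUSG00000037921) at chr8:61928087-62038244 on the plus strand. Zbp1 (ENSMUSG00000027514) is at chr2:173206612-173218923 on the minus strand. Adar (ENSMUSG00000027951) is at chr3:89715022-89753446 on the plus strand and Eif2ak2 (ENSMUSG00000024079) at chr17:78852564-78882573 on the minus strand. All 9 are protein-coding. In GENCODE M21, exons of 3 of them overlap a gene on the opposite strand: Adar shares 1365 of its 8118 exon bases with Chrnb2, Eif2ak2 shares 174 bases with Gm26637 and 47 with n-R5s29, and Dhx58 shares 141 bases with Dhx58os. The sources used here do not say whether counting used strand, so reads of those stretches cannot be told apart.

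Start-site windows of RefSeq (GRCm38.p6), from 250 bases before to 50 bases after a start, were given for 7 of the 9 genes, and Dhx58 and Zbp1 had no entry. Adar had 3 windows. They were searched on both strands for the core of the interferon-stimulated response element, GAAANNGAA, the element that interferon-activated transcription factors bind. It was found in 6 of the 7 genes, against 9.09% of 11190 tested genes with a window, and Mavs was the gene without it. Counted per window, 8.56% of 32851 windows of all genes held it. The stretches that carry the matches are printed here because they set Mavs beside the other genes, with the matching letters in capitals, 5′ to 3′ on the gene's strand.
Ddx60, chr8:61927987-61928086, plus strand, the 100 bases before the start: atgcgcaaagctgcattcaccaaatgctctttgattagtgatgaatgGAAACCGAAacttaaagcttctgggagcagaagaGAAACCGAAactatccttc
Mavs, chr2:131233963-131234062, plus strand, the 100 bases before the start: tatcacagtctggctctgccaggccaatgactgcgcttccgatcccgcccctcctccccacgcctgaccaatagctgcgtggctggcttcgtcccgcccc
Ifih1, chr2:62646348-62646377, minus strand: agaattcgcgTTCCCTTTCctgtttctcac
Ifih1, chr2:62646206-62646235, minus strand: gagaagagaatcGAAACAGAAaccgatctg
Ddx58, chr4:40239803-40239832, minus strand: ctgaggcagtTTCGATTTCctatggccagc
Trim25, chr11:88999384-88999413, plus strand: gcccctcctgTTCAGTTTCgattccttcct
Adar, chr3:89730468-89730497, plus strand: gGAAAAGGAActtcctcacagggcggagag
Adar, chr3:89730738-89730767, plus strand: ttttcaaggaaacGAAAGTGAActctgggg
Eif2ak2, chr17:78882533-78882562, minus strand: tccgccggGAAAACGAAACAGAAgagaacc

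Ddx60 held the same 9 letters at both of its matches, which began 53 and 19 bases before the start. In Eif2ak2 a pair of matches overlapped, beginning at bases 19 and 25 after the start. In Ddx58, Trim25 and the upstream Ifih1 stretch the letters stand on the other strand. The interferon-gamma activated site, TTCNNNGAA, was found in Adar and Eif2ak2 among the 7 genes. It was found in 8.37% of the 11190 tested genes with a window and in 8.3% of all windows. Among tested genes with a window, the response element core was found in 9.09% of 11190, and in 15.7% of the 458 that were at least 2-fold higher in sFD17 than in Ctrl. A match is a run of letters and was not tested for binding.

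**Figure D1:**
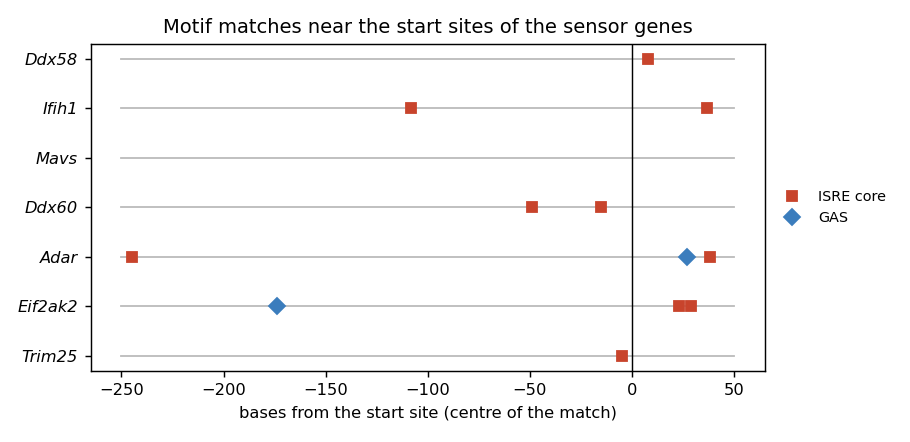
Positions of motif matches around the start sites of the 7 sensor genes with a RefSeq window; the horizontal axis is the distance in bases from the start to the centre of the match, and the symbols separate the GAAANNGAA core from the TTCNNNGAA site. A GAAANNGAA match is drawn for 6 genes and none for Mavs.

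The RIG-I-like helicase genes were highest in the sFD17 library. Ddx58, whose product RIG-I recognises RNA ends that carry triphosphate, had 1138 counts in Ctrl (67.4 CPM), 982 in TP5 (56.0 CPM), 2182 in sFD17 (165 CPM) and 1088 in FR17 (47.4 CPM). Its sFD17 level stood apart from the other libraries, of which FR17 was the lowest. Ifih1, whose product MDA5 binds long double-stranded RNA, had 854 counts in Ctrl (50.6 CPM), 829 in TP5 (47.3 CPM), 2345 in sFD17 (178 CPM) and 844 in FR17 (36.8 CPM). The order of libraries was that of Ddx58. Dhx58 encodes LGP2, which lacks the signalling domains of the other helicases and tunes them. It had 391 counts in Ctrl (23.1 CPM), 426 in TP5 (24.3 CPM), 1070 in sFD17 (81.1 CPM) and 460 in FR17 (20.0 CPM), again high in sFD17 alone. Dhx58os, which shares bases with it, had only 5, 7, 21 and 8 counts in the same order.

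The adaptor and the ligase did not share that pattern. Mavs had 318 counts in Ctrl (18.8 CPM), 248 in TP5 (14.1 CPM), 138 in sFD17 (10.5 CPM) and 479 in FR17 (20.9 CPM). It was the only gene of the 9 whose lowest value was in sFD17. Trim25, a ubiquitin ligase that acts in RIG-I signalling, had 3873 counts in Ctrl (229 CPM), 3706 in TP5 (211 CPM), 4019 in sFD17 (305 CPM) and 4613 in FR17 (201 CPM). It was highest in sFD17, but by less than 2-fold over every other library. Ddx60, an interferon-inducible helicase gene, had 924 counts in Ctrl (54.7 CPM), 924 in TP5 (52.7 CPM), 2373 in sFD17 (180 CPM) and 933 in FR17 (40.6 CPM). Here sFD17 was again the highest and FR17 the lowest library, with Ctrl and TP5 close to each other.

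Zbp1 encodes a sensor of left-handed nucleic acid that can start necroptosis through RIPK3. It had 619 counts in Ctrl (36.6 CPM), 521 in TP5 (29.7 CPM), 3732 in sFD17 (283 CPM) and 806 in FR17 (35.1 CPM). No other sensor gene had so large a gap between sFD17 and the remaining libraries. Adar encodes the deaminase that turns adenosine in double-stranded RNA into inosine, which lowers its detection by MDA5. It had 776 counts in Ctrl (45.9 CPM), 985 in TP5 (56.2 CPM), 1542 in sFD17 (117 CPM) and 986 in FR17 (43.0 CPM). Its overlapping neighbour Chrnb2 had 40 to 50 counts. Eif2ak2 encodes PKR, the kinase that stops translation on binding double-stranded RNA, and had 402 counts in Ctrl (23.8 CPM), 538 in TP5 (30.7 CPM), 1099 in sFD17 (83.3 CPM) and 472 in FR17 (20.6 CPM). The overlapping Gm26637 had 8 to 39 counts. For both Adar and Eif2ak2 the TP5 value lay between Ctrl and sFD17.

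**Figure D2:**
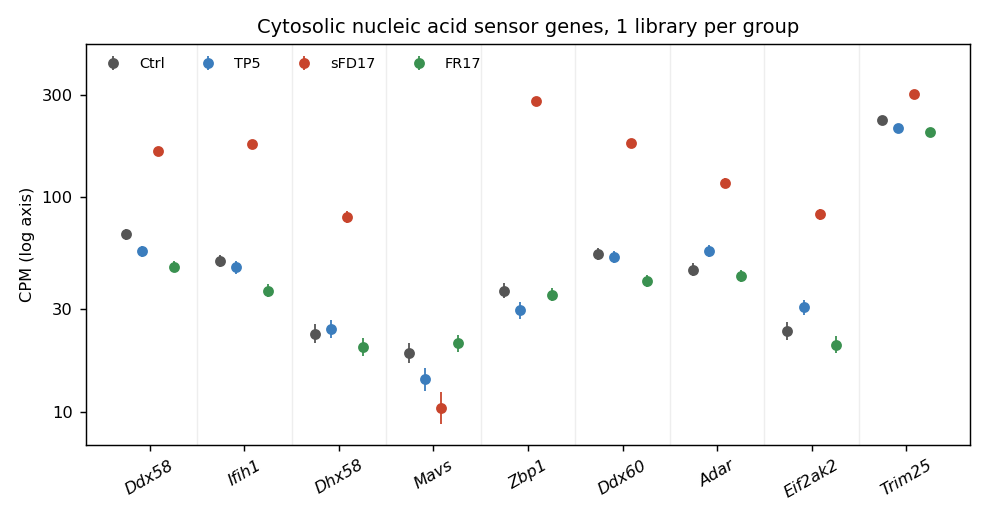
TMM-scaled CPM (log axis) of the 9 sensor genes in the 4 libraries, 1 point per library; error bars are exact 95% Poisson intervals and cover counting error only. The sFD17 point is the highest for 8 genes and the lowest for Mavs, and Zbp1 reaches 283 CPM in sFD17 against 36.6 in Ctrl.

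Between genes, levels were compared per length, as RPKM, which divides CPM by the gene length in kilobases. Trim25 was the highest of the 9 in Ctrl at 39.8 RPKM, in TP5 at 36.7 and in FR17 at 34.9. In sFD17 the highest was Zbp1 at 80.1 RPKM, with Trim25 next at 52.9. At the other end stood Eif2ak2, with 4.65 RPKM in Ctrl and 4.02 in FR17, and Mavs, with 4.23 in TP5 and 3.13 in sFD17. The highest and lowest genes were 8.56-fold apart in Ctrl and 25.6-fold apart in sFD17. In Ctrl the neighbours Mavs and Adar, at 5.63 and 5.66 RPKM, did not differ beyond their counting intervals, nor did Ifih1 and Ddx60 at 6.19 and 6.30 RPKM. The summed RPKM of the RIG-I-like helicases stood to that of their adaptor Mavs at a ratio of 4.06 for Ctrl, 5.00 for TP5, 22.4 for sFD17 and 2.78 for FR17.

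In sFD17 against Ctrl, 7 of the 9 sensor genes were at least 2-fold higher, where 5.32% of all tested genes were, and 0 were at least 2-fold lower, where 6.47% were. Differences are given as the log2 CPM of one library minus that of the other, with the 95% interval that the counts allow. Zbp1 was 2.94 higher (2.82 to 3.07), rank 23 of the 16369 tested genes. Ifih1 was 1.81 higher (1.70 to 1.93), Dhx58 1.80 (1.64 to 1.98) and Eif2ak2 1.80 (1.64 to 1.98), at ranks 184, 185 and 186. Ddx60 was 1.71 higher, Adar 1.34 and Ddx58 1.29 (1.19 to 1.40). Trim25 differed by 0.41 (0.35 to 0.47), short of 2-fold. Mavs differed by -0.84 (-1.15 to -0.56), with an interval that reaches past 2-fold. The median of the 9 was 1.71, beside -0.03 for all tested genes. When libraries were scaled to the neutrophil markers, which sFD17 held at a higher level, Ddx58 (0.86) and Adar (0.91) missed 2-fold, Mavs was at -1.27 and Trim25 at -0.02, and 5 genes were at least 2-fold higher and 1 lower, where 2.47% and 14.9% of tested genes were. Scaling by library size alone gave 7 higher and 1 lower, with Mavs at -1.05, where 3.54% and 9.37% of tested genes were.

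With free TP5 none of the 9 sensor genes had a 2-fold difference from Ctrl, where 8.18% of tested genes had one in either direction. A count of 0 of 9 is near that background. Eif2ak2 differed by 0.36 (0.18 to 0.56) and Adar by 0.29 (0.15 to 0.43). Mavs differed by -0.41 (-0.66 to -0.17), Zbp1 by -0.30 (-0.47 to -0.13) and Ddx58 by -0.27 (-0.39 to -0.14). The intervals of Ifih1, Dhx58 and Ddx60 include 0. The median of the 9 was -0.10, and 0.00 for all tested genes.

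In FR17, too, all 9 sensor genes were within 2-fold of Ctrl, where 7.50% of tested genes were past it, so that 0 of 9 is near the background. The values ran from -0.51 (-0.63 to -0.39) for Ddx58 and -0.46 (-0.60 to -0.32) for Ifih1 to 0.15 (-0.06 to 0.36) for Mavs, with a median of -0.21 beside 0.02 for all tested genes. Ddx60 stood at -0.43 (-0.56 to -0.30). Zbp1 was at -0.06 and Adar at -0.10, and both intervals include 0. The signs of Dhx58, Zbp1, Adar, Eif2ak2 and Trim25 turned positive under library size alone and under the neutrophil marker scale, which moved the median of all genes to 0.26 and 0.32, and relative to that median only Mavs lay above 0 in each case. The comparisons of TP5, sFD17 and FR17 with Ctrl share the 1 Ctrl library.

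**Figure D3:**
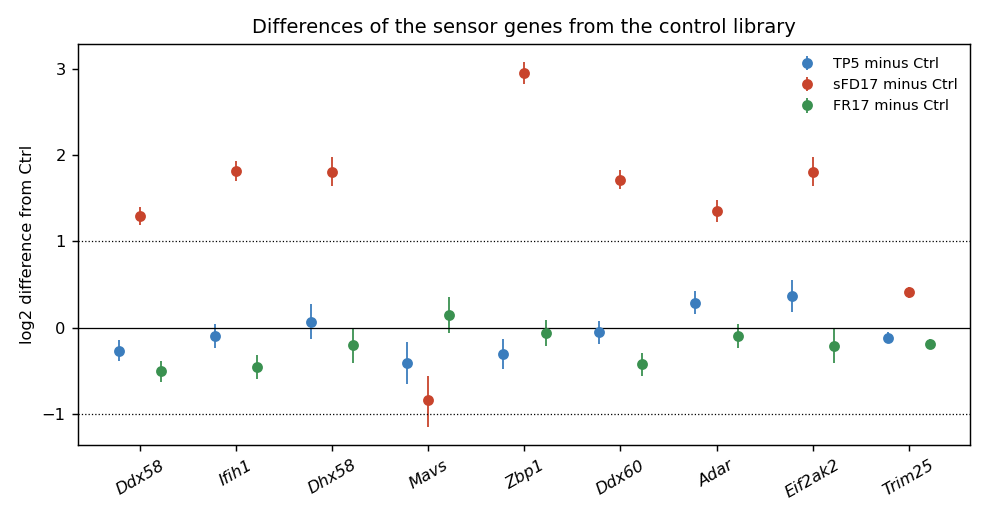
Log2 differences of the 9 sensor genes from the Ctrl library for TP5, sFD17 and FR17, on the TMM-scaled log2 CPM scale; error bars are 95% intervals of the count ratio and cover counting error only. In sFD17, 7 genes lie at or above 1 and Mavs at -0.84, while TP5 values span -0.41 to 0.36 and FR17 values -0.51 to 0.15.

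The assembling peptides differ in the order of the residues in the pentapeptide arm, and their libraries were compared at the same dose and day. In FR17 against sFD17, 7 of the 9 sensor genes were at least 2-fold lower, where 10.8% of tested genes were, and 0 were at least 2-fold higher, where 11.3% were. Zbp1 was at -3.01 (-3.12 to -2.90), Ifih1 at -2.27, Ddx60 at -2.14, Eif2ak2 and Dhx58 at -2.01, Ddx58 at -1.80 and Adar at -1.44. Mavs differed by 0.99 (0.72 to 1.28) and Trim25 by -0.60 (-0.66 to -0.54). The median was -2.01 against 0.07 for all tested genes. Mavs passed 2-fold with at least 10 counts in every library (1.00) and with no filter (1.10). It also did so under library size alone (1.45) and on the neutrophil marker scale (1.72), where Adar fell short at -0.98 and -0.71, leaving 6 lower and 1 higher. Under library size alone 4.78% of tested genes were at least 2-fold lower and 25.7% higher, and on the neutrophil marker scale 3.02% and 38.2%. Trim25 turned to 0.14 under the neutrophil marker scale. In sFD17 against TP5, 7 of the 9 sensor genes were at least 2-fold higher, where 6.74% of tested genes were, and 0 lower, where 5.64% were. Zbp1 differed by 3.25 (3.12 to 3.39), Ifih1 by 1.91 and Adar by 1.06 (0.94 to 1.17), Mavs by -0.43 and Trim25 by 0.53. Adar fell short of 2-fold at 0.79 under library size alone and at 0.65 on the neutrophil marker scale.

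FR17 against TP5 set the assembling peptide beside the free peptide it carries. None of the 9 sensor genes, 0 in all, was 2-fold apart, where 9.92% of tested genes were, so that the count is near the background. Eif2ak2 differed by -0.57 (-0.76 to -0.40), Mavs by 0.56 (0.34 to 0.79) and Zbp1 by 0.24 (0.08 to 0.40). Trim25 was at -0.07 and turned positive under library size alone, and Ddx58, Dhx58 and Trim25 did so under the neutrophil marker scale. The median was -0.28, beside -0.02 for all tested genes.

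edgeR's exact test, with a dispersion estimated over the 4 libraries taken as 1 group, was run on all tested genes beside the 2-fold rule, with calls at an unadjusted p under 0.05. Because the differences between groups enter this dispersion (biological coefficient of variation 0.212 to 0.449), and each arm is 1 library, its calls restate the differences between these counts and are no separate support for them. In sFD17 against Ctrl it called 7 sensor genes, and 4.83% of all tested genes. It called 0 of the 9 for TP5 (1.98% of tested genes) and 0 for FR17 (1.88%) against Ctrl. For FR17 against sFD17 it called 8, Mavs being the addition, where 12.7% of tested genes were called. It called 0 for FR17 against TP5 (3.67%) and 7 for sFD17 against TP5 (4.64%).

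**Figure D4:**
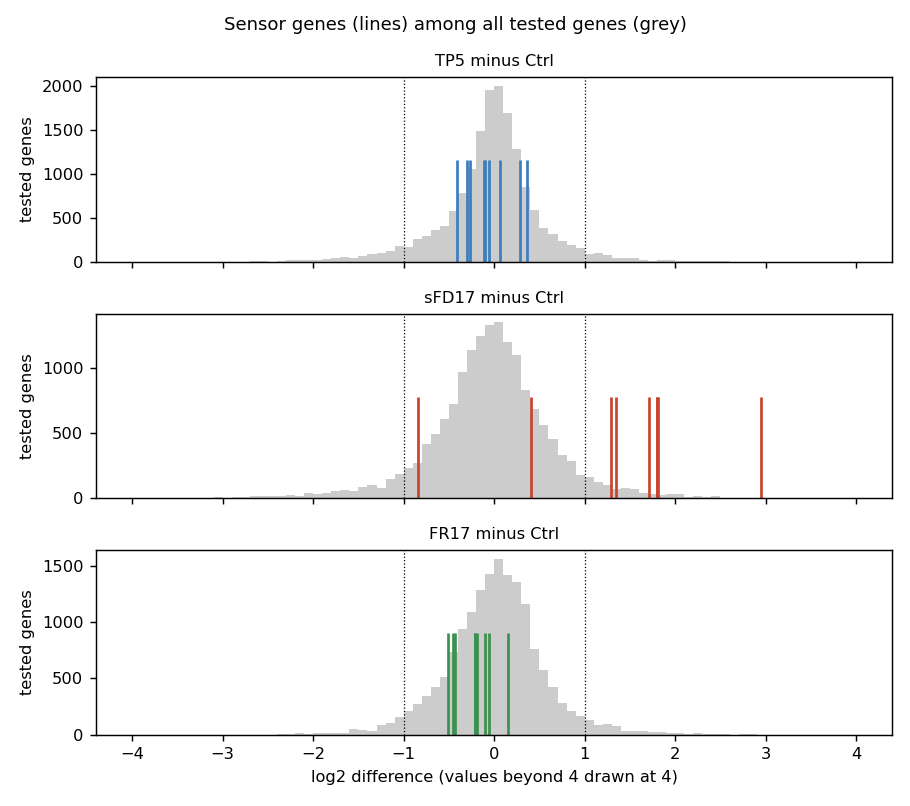
Histograms of the log2 difference from Ctrl over the 16369 tested genes in TP5, sFD17 and FR17, with the 9 sensor genes as vertical lines; values beyond 4 are drawn at 4. In sFD17, 7 lines lie at or above 1, a range that held 5.32% of tested genes.

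Genes around the sensors were read from lists by role. Upstream and beside the RIG-I-like helicases, 16 tested regulators held 0 genes at least 2-fold apart in sFD17 against Ctrl, where 5.32% of tested genes were higher and 6.47% lower, so that 0 of 16 is near the background. On the neutrophil marker scale, which lowers sFD17 values against Ctrl, 1 gene was at least 2-fold lower, where 14.9% of tested genes were. On the main scale the median was 0.00. Rnf135, a ligase for RIG-I, was at -0.79, Trim14 at 0.42, Nlrx1 at -0.15 and Tomm70a at -0.26. Rnf125, a ligase that marks RIG-I for degradation, was at 0.34 in sFD17 and -0.83 in FR17. Downstream of Mavs, 2 of 14 signalling genes were at least 2-fold higher in sFD17, where 5.32% of tested genes were. The 2 were Ikbke, an interferon regulatory factor kinase gene, with 446, 399, 2274 and 530 counts in Ctrl, TP5, sFD17 and FR17 (2.70 in sFD17), and Irf7, with 2346, 2939, 9579 and 2488 counts (2.38 in sFD17). The remaining 12 lay within 2-fold, among them Traf3 at 0.74, Azi2 at 0.32, Ikbkb at 0.27, Irf3 at -0.25 and Tradd at -0.63, and the median of the list was 0.30. On the neutrophil marker scale 3 of the 14 were past 2-fold in either direction, where 2.47% of tested genes were higher and 14.9% lower. That scale lowers sFD17 values against Ctrl, and the gene it added was on the lower side. In FR17 against Ctrl 0 of the 14 were 2-fold apart, near the background of 7.50%.

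The effector genes that act on foreign RNA held the largest single differences of the lists. In sFD17 against Ctrl 17 of 19 were at least 2-fold higher, where 5.32% of tested genes were, with a median of 1.89. Under library size alone 15 were past 2-fold, where 3.54% of tested genes were higher, and on the neutrophil marker scale 14, where 2.47% were. Oas1c, at 0.81, was short of 2-fold. Ifit2, a gene of the family that binds foreign RNA, had 260, 259, 3217 and 266 counts in Ctrl, TP5, sFD17 and FR17, a difference of 3.98 in sFD17. Its relative Ifit3 had 603, 500, 5243 and 571 counts, or 3.47 in sFD17. Rsad2, the antiviral viperin gene, was at 2.50 in sFD17 and -0.93 in FR17, and Oas1g at 1.69 and -0.20. In FR17 against Ctrl the median of the list was -0.56. Oasl2, with 4300 counts in Ctrl and 2768 in FR17, was the 1 gene at least 2-fold lower (-1.08). Among all tested genes 586 of 16369 were, so that 1 of 19 is near the background. Under library size alone and under the neutrophil marker scale no gene of the list was at least 2-fold lower. In TP5 against Ctrl the median was -0.20 and none was 2-fold apart, where 8.18% of tested genes were, with Oas1g at -0.60. Ifit and Oas genes have near-identical relatives, so the split of reads between them is uncertain.

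All 5 genes of ISG15 conjugation, a ubiquitin-like tag, were at least 2-fold higher in sFD17 than in Ctrl, where 5.32% of tested genes were, with a median of 2.00. Under library size alone and on the neutrophil marker scale 4 of 5 were past 2-fold, where 3.54% and 2.47% of tested genes were higher. Herc6, its ligase in mice, had 248, 220, 1504 and 285 counts in Ctrl, TP5, sFD17 and FR17 (2.95 in sFD17), and the protease gene Usp18 had 169, 227, 841 and 181 (2.66). Isg15 itself was at 2.00 in sFD17 and -0.70 in FR17, and Uba7 at 1.10 and -0.27. Of the genes for interferon receptors and the factors they activate, 1 of 5 was 2-fold higher in sFD17, where 5.32% of tested genes were, namely Stat2 with 976, 856, 3112 and 1031 counts (2.03), beside Irf9 at 0.86 and Ifnar2 at 0.25. Interferon transcripts themselves were scarce. Ifnb1 had 47 counts in Ctrl, 18 with TP5, 19 with sFD17 and 76 with FR17, and Ifng had 15, 17, 23 and 56. Against Ctrl, Ifnb1 was at -1.35 in TP5 (-2.31 to -0.63) and -0.90 in sFD17 (-1.80 to -0.15). Ifng was at 0.89 in sFD17 (-0.03 to 2.02) and 1.35 in FR17 (0.62 to 2.39), and the intervals are wide at these counts. Under library size alone and on the neutrophil marker scale, which lower sFD17 values against Ctrl, Ifnb1 was at least 2-fold lower in sFD17. Under these scalings 9.37% and 14.9% of tested genes were. The other 19 of the 21 listed interferon genes had at most 2 counts in any library. Ifng was highest in the library with the highest NK cell marker sum, 74.4 CPM in FR17 against 24.3 in Ctrl. The T cell marker sum was also highest in FR17, at 76.8 CPM against 45.3 in Ctrl. The part of either cell type in the Ifng counts was not tested.

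Of 15 tested genes of DNA sensing, 6 were at least 2-fold higher in sFD17 than in Ctrl, where 5.32% of tested genes were, with a median of 0.82. Under library size alone and on the neutrophil marker scale 5 were past 2-fold, where 3.54% and 2.47% of tested genes were higher. Those with large values belong to the Ifi200 family: Ifi204 had 1526, 1601, 5726 and 1809 counts in Ctrl, TP5, sFD17 and FR17 (2.26 in sFD17), while Ifi206 was at 1.99, Ifi208 at 1.97 and Ifi205 at 1.46. Samhd1, which breaks down nucleotides, was at 1.04 and Ifi209 at 0.87. Below 0 lay Tmem173, the gene of the adaptor STING, at -0.39, Aim2 at -0.29, Ifi203 at -0.16 and Ddx41 at -0.15. Members of this family are similar in sequence, and their counts may be shared. In TP5 the genes farthest from Ctrl, among those with at least 50 counts, were Ifi205 at 0.94 and Ifi209 at 0.59. Of 6 partners of ZBP1 in cell death 1 was past 2-fold, where 5.32% of tested genes were higher. Mlkl, the executor of necroptosis, was at least 2-fold higher in sFD17 than in Ctrl with 60, 67, 112 and 98 counts (1.23), under 2-fold on the neutrophil marker scale. In sFD17 Ripk3 was at 0.74, Ripk1 at 0.30, Fadd at 0.02 and Casp6 at -0.21. Fadd was at 0.45 in TP5 and 0.64 in FR17, where Zbp1 was at -0.30 and -0.06.

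Lists next to PKR, the RNA helicases and the endosomal sensors held no 2-fold difference from Ctrl in any peptide library, where 8.18% of tested genes did in TP5, 5.32% (higher) and 6.47% (lower) in sFD17, and 7.50% in FR17. For lists of 8 to 10 genes a count of 0 is near that background. Among 10 genes of the translation stress branch, Dnajc3, an inhibitor of PKR, was at -0.70 in sFD17, Ppp1r15a at 0.61, Atf4 at 0.29, Eif2s1 at -0.16 and Eif2ak3 at 0.07. Ddit3 was at 0.16 in sFD17 and -0.62 in FR17. The 9 further helicases included Ddx1 at -0.98, Dhx33 at -0.54, Ddx21 at -0.07 and Ddx6 at 0.49 in sFD17, and in FR17 Ddx6 was at -0.91 and Ddx3x at -0.68. Among 8 endosomal sensor genes, Myd88 was at 0.54, Tlr8 at -0.54, Tlr9 at 0.30 and Tlr3 at -0.06 in sFD17, and Tlr13 was at 0.40 there and -0.65 in FR17. On the neutrophil marker scale 1 gene of the stress branch and 1 helicase gene were at least 2-fold lower in sFD17, where 14.9% of tested genes were. Under library size alone 1 helicase gene was, where 9.37% of tested genes were. Both scalings lower sFD17 values against Ctrl, and these counts are near the background. The relative of Adar stood in another order. Adarb1, a second RNA deaminase gene, had 269 counts in Ctrl, 120 with TP5, 51 with sFD17 and 447 with FR17, and differed from Ctrl by -1.21 in TP5, -2.01 in sFD17 and 0.29 in FR17. Macrophage markers, at 0.639 and 0.324 of their Ctrl level in TP5 and sFD17 and 1.19 in FR17, followed the same order as Adarb1 and Mavs, and their part was not tested.

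**Figure D5:**
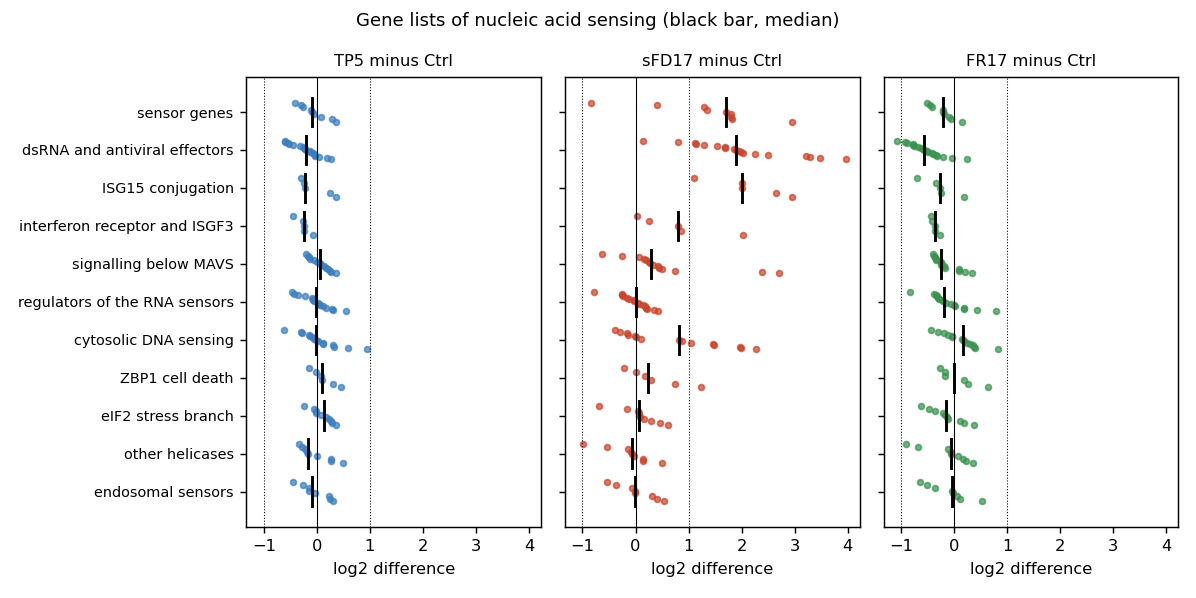
Log2 differences from Ctrl of single genes (points) in each list of nucleic acid sensing genes, for TP5, sFD17 and FR17; black bars are list medians. In sFD17 the medians are 1.71 for the 9 sensor genes, 1.89 for effectors on foreign RNA and 2.00 for ISG15 conjugation, and 0.00 for the regulators.

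The pattern of the 9 sensor genes over the 4 libraries, taken as the median of their centred log2 CPM, was -0.31 in Ctrl, -0.35 for TP5, 1.31 for sFD17 and -0.64 for FR17. Of 9790 other genes with enough counts, the nearest by Euclidean distance over these 4 values were Mrgpra2a (0.088), Parp10 (0.130), Daxx (0.150), Trafd1 (0.186) and 1600014C10Rik (0.197). Parp10 had 1702, 1529, 3995 and 1742 counts in Ctrl, TP5, sFD17 and FR17, and Trafd1 had 3025, 2740, 6806 and 3472. Among the sensor genes themselves Dhx58 (0.127) and Ddx60 (0.137) lay nearest to the median pattern, and Trim25 (1.08), Zbp1 (1.20) and Mavs (2.25) farthest from it. Mrgpra2a has a near-identical relative, so its counts are uncertain.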

How the data were processed

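Total RNA of sorted lung cells was extracted with TRIzol and sequenced after preparation with the NEBNext Ultra Directional RNA kit, according to the methods of the study. The submitters' processing notes name HISAT2 2.0.5, StringTie 1.3.3b, featureCounts 1.5.0-p3, edgeR 3.18.1 and build GRCm38.p6, with no role for each. The deposited values are the authors' unnormalized read counts for each gene, with the gene's coordinates and length, and 53462 of the 54532 genes have the coordinates of GENCODE M21. The 0 sample columns left unmapped mean that every column matched a group by name. Of the symbols, 100 stand on more than 1 row.

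Libraries were scaled with TMM in edgeR 4.0.16 (R 4.3.3). Log2 CPM used a prior count of 2, and a gene was called at a 2-fold difference. The 1 library per group, a pool of mice, leaves no spread to test against: intervals are exact binomial for ratios and exact Poisson for CPM, at 95%, and cover counting error only. Depth of 15543071 to 19638228 counts puts 3 counts at 0.131 to 0.227 CPM. RPKM used the gene length in the file. Alternatives were DESeq2 1.42.0 size factors and its Wald test, library size alone, the summed neutrophil markers as scale, at least 10 counts in every library, no filter, a prior count of 0.5, a 1.5-fold rule and edgeR's exact test. Tables and plots used Python 3.11.15, pandas 2.3.3, numpy 2.4.6, scipy 1.17.1 and matplotlib 3.10.9.

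Named genes were the 9 sensor genes, interferon genes with at least 10 counts in a library, per list and peptide the 2 genes farthest from Ctrl given a minimum of 50 counts in either library, and the 5 genes nearest in pattern. Oas1c, Irf3, Tradd, Tmem173, Aim2, Ifi203 and Ddx41 were named after their values were seen. Some genes that this rule selects are left out of the text. The sensor genes, lists and markers were chosen with earlier results of these data known.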

Additional observations from a re-analysis of the deposited data

How the results depend on the processing

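In the 3 comparisons with sFD17, 6 to 8 sensor genes were past 2-fold in either direction under every scaling, filter and prior count tried, and single genes and directions changed as given above. DESeq2's Wald test at an unadjusted p under 0.05, on single libraries as the exact test, called 1 sensor gene, Eif2ak2, in sFD17 against Ctrl (192 of 16369 genes in all) and 0 in sFD17 against TP5 (139 in all), where edgeR's exact test called 7 each; the cause was not tested. It called 6 in FR17 against sFD17 (1138 in all) and 0 for TP5 and FR17 against Ctrl and FR17 against TP5, where it called only 63, 40 and 121 of all genes. Library size alone moved the median of all genes in sFD17 against Ctrl to -0.23 and the neutrophil marker scale to -0.44, which took that of the 9 sensor genes from 1.71 to 1.28. Without a filter on low counts Zbp1 changed sign in FR17 against Ctrl, as did Trim25 in FR17 against TP5.

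No paired analysis was possible because each group has 1 library, and for the same reason leaving out a library was not run. Among the 9 sensor genes depth limits Mavs most, with 138 counts in sFD17; most interferon genes stayed under the 3 counts that a count of 0 allows. Pooling hides the spread between mice.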
